A study of Mus musculus with 4 samples.

Results

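The genes described here are 10 secreted Wnt ligands that skin mesenchyme is known to make or may make: Wnt2, Wnt2b, Wnt4, Wnt5a, Wnt5b, Wnt6, Wnt9a, Wnt10a, Wnt10b and Wnt11. They were chosen by gene symbol, as 10 of the 19 mouse Wnt genes and of 33126 named gene units in the tables. Each had 1 entry in each library, with status OK and joined to no other gene. The samples were dermal cells sorted from embryonic mouse skin, from the ventral foot at E17.5 and from the dorsal back at E14.5. At each site 1 library carries the tag Axin2-LacZ pos and 1 the tag Axin2-LacZ neg. LacZ at the Axin2 locus reports Wnt/beta-catenin activity, because Axin2 is switched on by that pathway. The libraries are called pos and neg below after these tags alone. Strain, zygosity of the reporter, sex and the number of embryos pooled are not stated in the labels. With 1 library in each of the 4 groups, no difference below has a replicate check and no test was possible.

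Wnt proteins are lipid-modified signals. Porcupine adds the lipid in the endoplasmic reticulum and Wntless carries the protein to the cell surface. There it binds Frizzled receptors, either with LRP5 or LRP6, which stabilises beta-catenin, or with partners such as Ror2 and Ryk, which steer cell movement and polarity without beta-catenin. In embryonic skin, signals from the epidermis start Wnt activity in the upper dermis, and dermal fibroblasts make ligands of their own, of which Wnt5a and Wnt11 are the best known. Which branch a ligand uses depends on the receptors of the receiving cell, so the grouping by role below is a convention.

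Levels are given as FPKM, which counts fragments relative to transcript length and sequencing depth, with the lower and upper bounds that the authors deposited. The bounds describe uncertainty inside 1 library. Their median half-width was 23.1% and 14.1% of the value in the foot pos and neg libraries and 9.07% and 9.95% in the back ones, so foot levels are the less precise. Axin2 itself measured 9.65 FPKM (7.10 to 12.5) in foot pos and 12.9 (10.2 to 15.3) in foot neg, then 4.49 (3.89 to 5.09) and 3.13 (2.63 to 3.64) in back pos and neg. Pos and neg overlapped at the foot, and at the back their bounds were apart as deposited but overlapped after rescaling (log2 ratio 0.28 ± 0.25), so the transcript did not clearly separate the tags at either site. All 12 dermal fibroblast markers were above 1 FPKM in every library. Of 13 keratinocyte marker units, 4 and 3 were above 0 at the foot and 13 and 12 at the back.

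Wnt5a was the most abundant of the 10 ligands in every library, and Wnt11 came next. The summed level of the 10 genes was 31.6 ± 4.25 FPKM in foot pos (the ± is the combined half-width), 57.8 ± 3.38 in foot neg, 53.5 ± 1.90 in back pos and 36.3 ± 1.73 in back neg. This order depends on the scaling. Divided by the scale factors used for the comparisons below, the sums were 28.8 ± 3.88, 44.0 ± 2.58, 60.2 ± 2.14 and 46.4 ± 2.21, with back pos highest and foot pos lowest. Wnt5a supplied 52.9%, 74.5%, 48.9% and 47.2% of the sums in turn, and Wnt11 supplied 15.4%, 11.1%, 19.8% and 23.5%. Foot neg was thus the library most dominated by 1 ligand, and the 8 genes other than Wnt5a and Wnt11 made up 14.4% of its sum against 29.4% to 31.6% elsewhere. Such shares do not depend on how libraries are scaled to each other. The 9 Wnt genes outside the group added 0, 0.180, 0.527 and 0.531 FPKM in all. Wnt16 was the 1 gene of these above 0 at the foot, at 0.180 FPKM in foot neg. Wnt3 and Wnt7b, the highest by mean rescaled level, were listed at 0 at the foot and lay between 0.138 and 0.202 FPKM at the back.

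**Figure D1:**
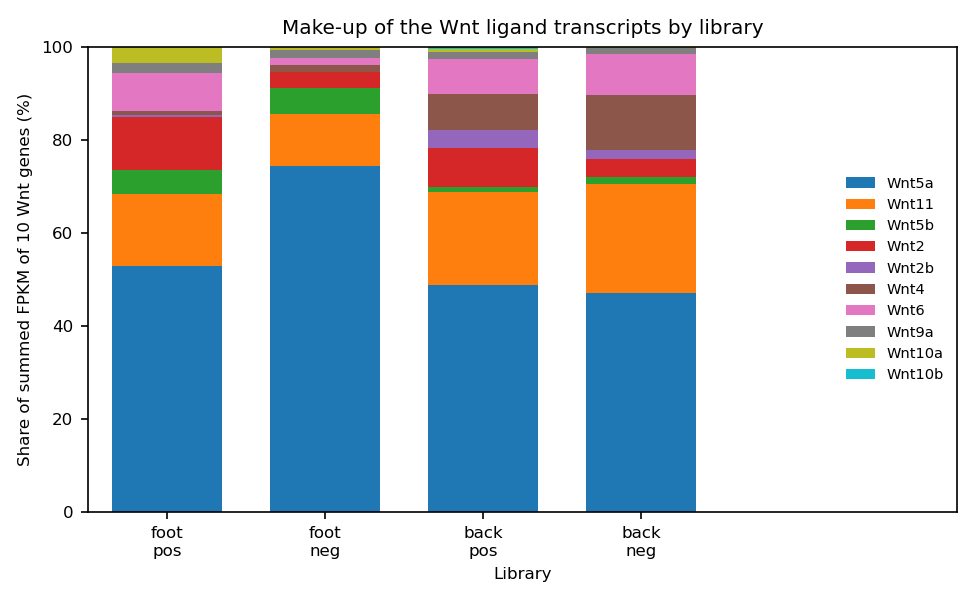
Stacked bars show the share (%) of each of 10 Wnt genes in their summed FPKM, for the pos and neg libraries of foot and back. The Wnt5a segment is 74.5% of the bar in foot neg and between 47.2% and 52.9% in the other bars.

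Below the first places the order of the ligands differed between sites. Back neg ran Wnt5a, Wnt11, Wnt4, Wnt6, Wnt2 and Wnt2b, and the bounds separated each of these from the next. In back pos, Wnt2, Wnt4 and Wnt6 followed Wnt11 at 4.44, 4.23 and 3.95 FPKM, and these neighbours did not differ beyond their bounds. In foot neg, Wnt5b followed Wnt11 at 3.25 FPKM, with bounds that overlapped those of Wnt2. In foot pos, Wnt5a stood clear of Wnt11, and no later neighbours were separated.

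**Figure D2:**
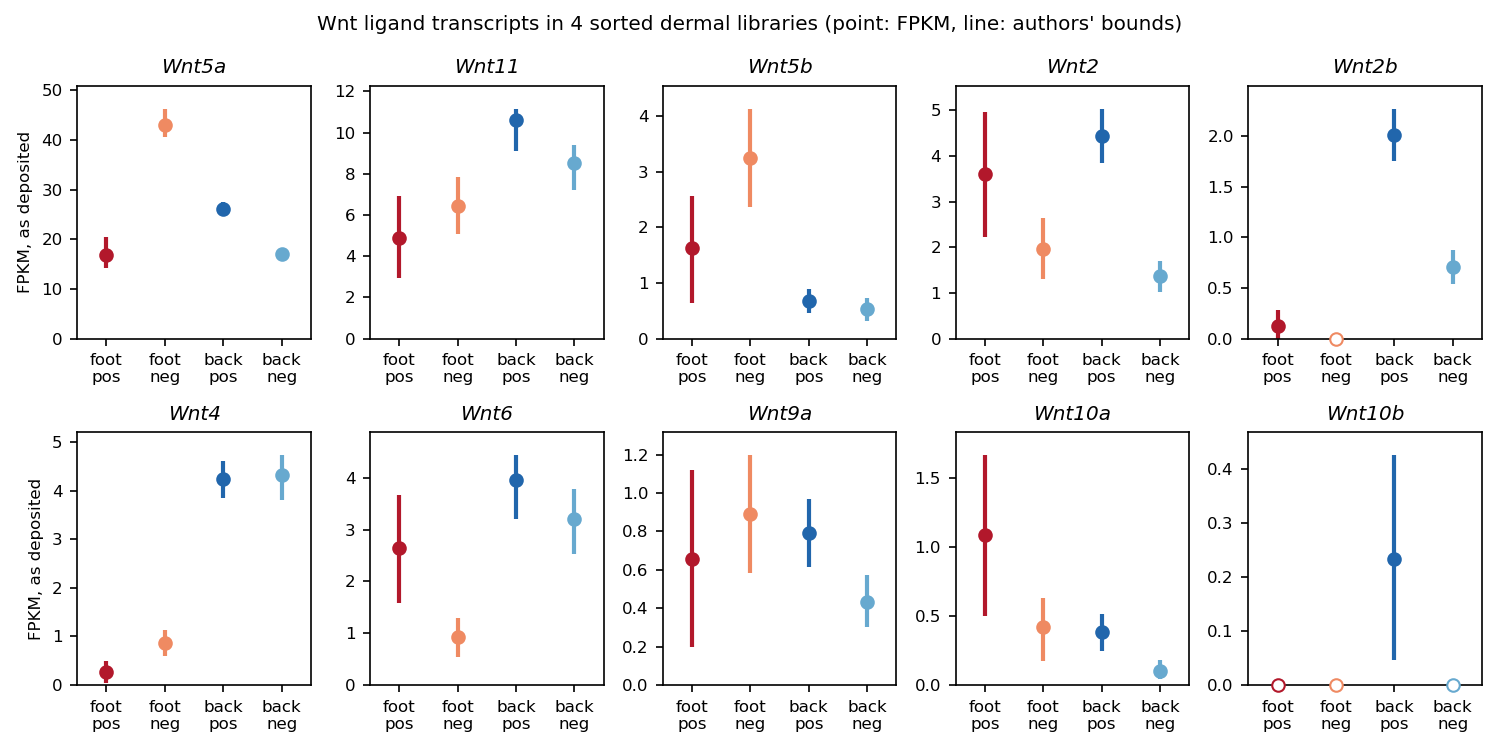
Each panel shows 1 Wnt gene in the 4 libraries, with FPKM as deposited on a linear axis that differs between panels; points are FPKM, lines the authors' bounds and open points values listed at 0. As deposited, Wnt5a peaks in foot neg at 43.1, and Wnt4 measures 4.23 and 4.32 at the back against 0.262 and 0.869 at the foot.

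Wnt5a, a ligand of Ror2 that limbs of the mouse need for outgrowth, occupies chr14:29317936-29340633 on mm9, the build of the files. It measured 16.7 FPKM (14.3 to 20.5) in foot pos, 43.1 (40.6 to 46.2) in foot neg, 26.1 (25.1 to 27.5) in back pos and 17.1 (16.3 to 18.3) in back neg. As deposited, foot neg was highest and back pos next, while foot pos and back neg overlapped. After rescaling, as described below, foot neg (32.8, 30.9 to 35.2) and back pos (29.4, 28.3 to 31.0) overlapped, and foot pos (15.3, 13.02 to 18.7) lay below back neg (21.9, 20.8 to 23.3). These levels lie above 75.0%, 86.3%, 87.2% and 84.7% of the units listed above 0 in the same library. If the bounds span 1.96 standard deviations of a fragment count on each side, they imply about 112, 896, 1765 and 1151 fragments.

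Libraries were compared as log2((FPKM + 1)/(FPKM + 1)) after division by a median-ratio scale factor, and a fold is the ratio of rescaled FPKM without the added 1. As deposited, the median of all counted genes lay at -0.25 for foot pos against neg, 0.18 for back pos against neg, and 0.33 and 0.76 for foot against back in pos and neg libraries. A call needed a log2 ratio of 1 or more in either direction and a level of 5 FPKM or more in 1 of the libraries. Genes listed at 0 on either side have no ratio. Because 2 of the 10 ligands reached 5 FPKM, a second count took genes of at least 1 FPKM whose rescaled bounds did not overlap.

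At the foot, Wnt5a was lower in the pos library, and Wnt2 and Wnt6 were higher there. Of 2 ligands counted, 1 was called, Wnt5a, and it was lower in pos, where 9.84% of 7933 genes were called higher and 9.11% lower. By separate bounds, 2 of 6 were higher and 1 of 6 lower, where 16.7% and 14.2% of 11884 genes were. Wnt5a had a log2 ratio of -1.06 ± 0.27, which is 2.15-fold lower in pos, and of -1.31 as deposited. Mast cell markers moved with Wnt5a between these libraries. The 6 markers summed to 2.17 FPKM in foot pos and 265 in foot neg, with 3 and 4 of them above 0. Cma1 supplied 165 FPKM of the foot neg sum, a value above its own upper bound of 139. Cpa3, a mast cell protease gene, was listed at 0 in foot pos and measured 32.7 FPKM in foot neg, and Mcpt4 and Fcer1a were listed at 0 in all libraries. At the back the mast cell markers summed to 24.6 FPKM in pos and 83.9 in neg, and Wnt5a was the higher in pos. Skeletal muscle markers, 7 units, also summed lower in foot pos, at 3.05 FPKM against 18.0 in foot neg. Tnnt1 made up most of the latter, at 12.6 FPKM (7.65 to 16.8) against 0.978 (0.251 to 7.74), with overlapping bounds. Des was the higher in foot pos, at 1.30 against 0.740 FPKM, also with overlapping bounds. The part of mast or muscle cells in the Wnt5a level was not tested.

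At the back, Wnt2, Wnt2b and Wnt5a were higher in the pos library. Of 2 ligands counted, 0 were called, where 3.61% of 6756 genes were called higher and 2.75% lower. By separate bounds, 3 of 6 were higher and 0 lower, where 18.7% and 14.6% of 11543 genes were. Wnt5a had a log2 ratio of 0.41 ± 0.10, a fold of 1.34. Its foot ratio minus its back ratio was -1.47 ± 0.29. In that difference 1 of 2 ligands was called, Wnt5a, and it was lower, where 11.0% of 8191 genes were called higher and 12.2% lower. Wnt5a and Wnt6 were the 2 of 7 ligands whose difference exceeded its half-width, Wnt6 higher and Wnt5a lower, where 23.7% of 11859 genes did so upward and 22.0% downward. The 12 dermal fibroblast markers had a median log2 ratio of 0.44 at the back, against 0.00558 over all genes. Of 12, 1 was called there, Pdgfra, higher in pos (1.28 ± 0.10), while Lum and Vim were slightly lower. At the foot their median was 0.27, with Col1a2 called higher (1.97 ± 0.04) and Col1a1 lower (-1.18 ± 0.06). The part of fibroblasts in the ligand levels was not tested.

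**Figure D3:**
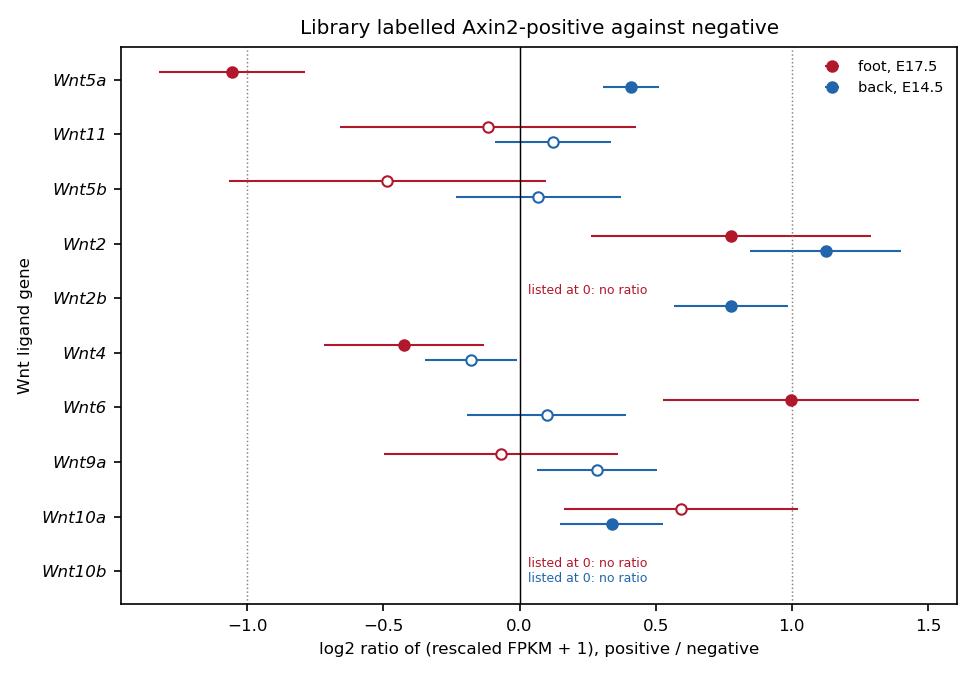
The horizontal axis is the log2 ratio of (rescaled FPKM + 1), pos over neg library, for each Wnt gene at the foot (red) and the back (blue); lines are combined half-widths, filled points have separate bounds and dotted lines mark a size of 1. Wnt5a lies at -1.06 for the foot and 0.41 for the back, and Wnt2 lies right of 0 at both sites, at 0.78 and 1.12.

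Wnt5b, the closest relative of Wnt5a, was highest in foot neg, at a much lower level than Wnt5a. It measured 1.62 FPKM (0.644 to 2.57) in foot pos, 3.25 (2.37 to 4.13) in foot neg, 0.673 (0.462 to 0.897) in back pos and 0.529 (0.317 to 0.731) in back neg. Pos and neg overlapped at both sites, with log2 ratios of -0.48 ± 0.58 for the foot and 0.07 ± 0.30 for the back. Between neg libraries the foot was higher by 1.05 ± 0.36 on the log2 scale, a fold of 3.66, and between pos libraries the value was 0.50 ± 0.55 with overlapping bounds.

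Wnt11, which guides convergent extension in zebrafish and branching of the mouse kidney, occupies chr7:105983622-106003705 on mm9. It measured 4.88 FPKM (2.94 to 6.90) in foot pos, 6.44 (5.07 to 7.82) in foot neg, 10.6 (9.09 to 11.1) in back pos and 8.52 (7.19 to 9.37) in back neg. The back levels were the higher ones, although foot neg and back neg overlapped as deposited. Pos and neg did not separate at the foot (log2 ratio -0.12 ± 0.54) or at the back (0.12 ± 0.21). Foot against back gave -1.25 ± 0.50 for pos and -1.01 ± 0.31 for neg libraries, both called. Without rescaling these were -0.98 and -0.36, short of a call.

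Upstream sequences are shown for Wnt11, Wnt2 and Wnt4, as 1 example each of the Wnt5a-type ligands, the Wnt2 pair and the ligands that epidermis also makes. Each is the 250 bases before an annotated start in RefSeq on GRCm38.p6, a different build from that of the expression files. Capitals mark the TCF/LEF core, searched as CTTTGA or CTTTGT on both strands.
Wnt11, chr7:98834862-98835111, plus strand: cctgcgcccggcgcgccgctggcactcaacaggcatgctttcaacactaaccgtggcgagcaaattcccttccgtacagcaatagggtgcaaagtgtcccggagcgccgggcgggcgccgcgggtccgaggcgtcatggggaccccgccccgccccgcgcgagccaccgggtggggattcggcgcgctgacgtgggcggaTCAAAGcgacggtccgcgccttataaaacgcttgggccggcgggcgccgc
Wnt2, chr6:18030446-18030695, minus strand: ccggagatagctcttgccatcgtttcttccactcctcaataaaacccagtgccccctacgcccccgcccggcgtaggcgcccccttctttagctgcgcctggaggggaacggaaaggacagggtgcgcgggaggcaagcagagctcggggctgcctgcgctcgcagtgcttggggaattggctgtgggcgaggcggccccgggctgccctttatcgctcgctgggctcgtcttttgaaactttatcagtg
Wnt4, chr4:137277385-137277634, plus strand: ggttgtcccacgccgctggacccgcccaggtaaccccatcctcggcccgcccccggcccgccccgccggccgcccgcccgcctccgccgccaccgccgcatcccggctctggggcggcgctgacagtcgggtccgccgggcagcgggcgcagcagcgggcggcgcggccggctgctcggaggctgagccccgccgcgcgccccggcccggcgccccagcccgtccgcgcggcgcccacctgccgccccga
For 8 of the 10 ligands 11 such windows were found, and 2 of the 11 held a core, where 27.6% of all 32851 windows did. They belong to Wnt11, with the core on the other strand, written TCAAAG here, 50 bases before the start, and to Wnt5b. The windows printed for Wnt2 and Wnt4 hold neither core. G and C make up 53.2% to 85.2% of the ligand windows, with a median of 70.8% against 52.4% over all windows. Letters in a window are not evidence of binding. Wnt5a and Wnt10a are named without a sequence.

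Wnt2, a beta-catenin ligand that acts with Wnt2b in forming the mouse lung, was higher in pos than in neg at both sites. It measured 3.60 FPKM (2.23 to 4.97) in foot pos, 1.97 (1.30 to 2.65) in foot neg, 4.44 (3.85 to 5.03) in back pos and 1.37 (1.03 to 1.70) in back neg. The pos libraries held the 2 highest levels, but the foot pair overlapped as deposited. The foot log2 ratio was 0.78 ± 0.51, a fold of 2.19 for which the bounds allow 1.01 to 4.60. The back log2 ratio was 1.12 ± 0.28, a fold of 2.86 for which they allow 1.99 to 4.30. The difference between these ratios, -0.35 ± 0.58, lay within its half-width. Foot and back overlapped for pos libraries (-0.48 ± 0.45) and for neg libraries (-0.14 ± 0.37, and 0.33 as deposited).

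Wnt2b, its near relative, was a ligand of the back samples. It measured 0.122 FPKM (0 to 0.287) in foot pos, worth about 2.09 fragments, was listed at 0 in foot neg, and measured 2.01 (1.76 to 2.27) in back pos and 0.710 (0.537 to 0.877) in back neg. Every back bound lay above every foot bound. At the back the pos to neg log2 ratio was 0.78 ± 0.21, a fold of 2.50 for which the bounds allow 1.77 to 3.72. Between pos libraries the back was 20.4-fold higher, and the bounds allow any fold from 7.56 upward.

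Wnt9a, a ligand of joint formation in the mouse, was low throughout. It measured 0.658 FPKM (0.197 to 1.12) in foot pos, 0.889 (0.584 to 1.20) in foot neg, 0.792 (0.615 to 0.969) in back pos and 0.433 (0.303 to 0.573) in back neg. After rescaling, no comparison separated its bounds.

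Wnt4, Wnt6, Wnt10a and Wnt10b are ligands that epidermis and its appendages also make. Wnt4, which the mouse kidney needs to form tubules, measured 0.262 FPKM (0.0489 to 0.489) in foot pos, 0.869 (0.599 to 1.14) in foot neg, 4.23 (3.85 to 4.62) in back pos and 4.32 (3.81 to 4.72) in back neg. Both back levels stood far above both foot levels. Foot against back gave a log2 ratio of -2.22 ± 0.26 for pos libraries, the back being 19.9-fold higher with 9.72 to 117 allowed by the bounds. For neg libraries it gave -1.97 ± 0.22, the back being 8.34-fold higher with 5.63 to 13.2 allowed. The foot pos level rests on about 5.45 implied fragments. Within the summed ligands the share of Wnt4 went from 0.829% and 1.50% at the foot to 7.92% and 11.9% at the back. Foot pos was below foot neg (-0.42 ± 0.29, separate bounds, both under 1 FPKM), and the back pair overlapped (-0.18 ± 0.17).

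Wnt6 sits 6.20 kb from Wnt10a on chromosome 1, and the files list the pair as separate genes. It measured 2.64 FPKM (1.59 to 3.67) in foot pos, 0.929 (0.544 to 1.30) in foot neg, 3.95 (3.20 to 4.43) in back pos and 3.20 (2.53 to 3.78) in back neg. Foot neg was the low library. The pos to neg fold at the foot was 3.40, with 1.46 to 8.08 allowed by the bounds and a half-width of 0.47 on the log2 scale, and at the back the log2 ratio was 0.10 ± 0.29. The difference between the 2 sites was 0.90 ± 0.55. Foot against back gave -1.58 ± 0.33 for neg libraries and -0.68 ± 0.44 for pos libraries, and the latter pair overlapped as deposited.

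Wnt10a, a ligand whose loss in people affects teeth, hair and sweat glands, was low. It measured 1.09 FPKM (0.498 to 1.66) in foot pos, 0.421 (0.175 to 0.631) in foot neg, 0.384 (0.247 to 0.517) in back pos and 0.104 (0.0410 to 0.177) in back neg. At each site pos was the higher, with separate bounds at the back (log2 ratio 0.34 ± 0.19, a fold of 3.25) and overlapping ones at the foot (0.59 ± 0.43, a fold of 3.10). The foot pos level rests on about 13.4 implied fragments. Wnt10b, a ligand of early hair placodes, measured 0.234 FPKM (0.0467 to 0.425) in back pos, about 5.86 fragments, and was listed at 0 in the other 3 libraries.

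Keratinocyte markers moved between sites together with Wnt2b, Wnt4, Wnt6 and Wnt11. The 13 marker units summed to 7.83 FPKM in foot pos, 1.39 in foot neg, 85.3 in back pos and 44.3 in back neg. The unit joining Krt14, Krt15, Krt16, Krt17, Krt19 and Krt42 was listed at 0 at the foot and measured 25.6 and 10.5 FPKM in back pos and neg. Cdh1, Epcam and Trp63 were listed at 0 at the foot and lay between 0.294 and 0.879 FPKM at the back. Krt10 did not follow this pattern. It measured 7.38 FPKM (5.53 to 9.22) in foot pos, most of the marker sum there, and 0 in foot neg. At the back it measured 23.5 FPKM in pos, above its own upper bound of 22.0, and 6.63 (5.88 to 7.38) in neg. Its foot pos and back neg bounds overlapped. Between the back libraries the marker sum was larger in pos, Wnt2b was higher in pos, and Wnt4, Wnt6 and Wnt11 did not separate. Endothelial markers also moved between sites, 6 genes that summed to 0.979 and 0.461 FPKM in foot pos and neg against 5.96 and 4.17 in back pos and neg. Of these, 2 of 6 were above 0 in each foot library and 6 of 6 in each back library. Cdh5, Emcn, Pecam1 and Tie1 were listed at 0 at the foot. Kdr did not follow this pattern. It measured 0.824 FPKM (0.408 to 1.25) in foot pos, most of the marker sum there, and 0.439 in foot neg. In back pos and neg Kdr measured 0.431 and 0.477 FPKM, and its foot and back bounds overlapped as deposited. The 6 pericyte and smooth muscle markers summed to 24.0 and 22.4 FPKM at the foot and 34.6 and 15.4 at the back. Acta2 measured 1.67 and 1.98 FPKM at the foot against 21.9 and 13.7 at the back, and Rgs5 7.53 and 4.74 against 0.283 and 0.199. Tagln, a large part of the other sums, was listed at 0 in back neg. It measured 13.9 and 13.6 FPKM at the foot and 10.7 in back pos. The part of these cells in the ligand levels was not tested. In bulk samples, fewer cells of a type and less RNA per cell cannot be told apart.

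**Figure D4:**
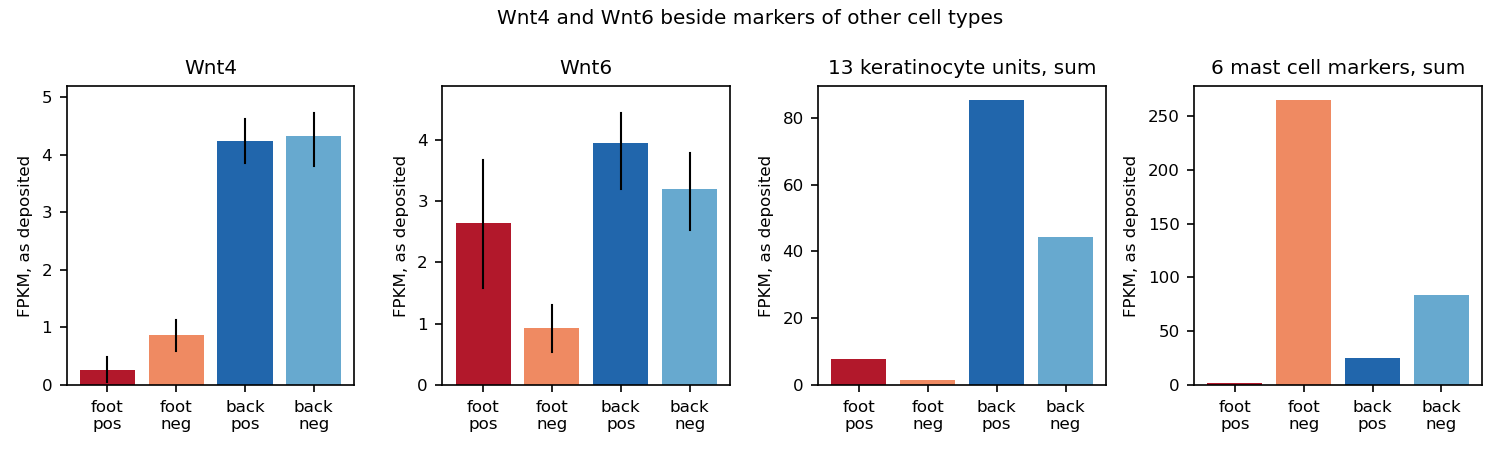
Bars show FPKM as deposited in the 4 libraries for Wnt4 and Wnt6, with the authors' bounds as lines, and the summed FPKM of 13 keratinocyte units and of 6 mast cell markers. The keratinocyte sum is 85.3 and 44.3 at the back against 7.83 and 1.39 at the foot, and the mast cell sum is highest in foot neg, at 265. Of that sum Cma1 supplies 165, above its own upper bound of 139.

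Foot against back sets skin that will form sweat glands beside skin that forms hair, and body site and stage cannot be told apart in it. Between pos libraries, Wnt2b, Wnt4, Wnt5a, Wnt6 and Wnt11 were lower at the foot, 5 of 8 ligands with at least 1 FPKM, and 0 were higher, where 23.8% of 11781 genes were lower and 22.8% higher by separate bounds. By size 1 of 2 was called, Wnt11, lower at the foot, where 14.2% of 7690 genes were called lower and 13.5% higher. Between neg libraries, Wnt4, Wnt6 and Wnt11 were lower and Wnt5a and Wnt5b higher, 5 of 6 ligands, where 28.0% of 12047 genes were lower and 25.4% higher. By size 1 of 2 was called, Wnt11, lower at the foot, where 12.2% of 7722 genes were called lower and 12.7% higher. Wnt5a had log2 ratios of -0.90 ± 0.26 for pos and 0.56 ± 0.12 for neg libraries, and of -0.61 and 1.28 as deposited.

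**Figure D5:**
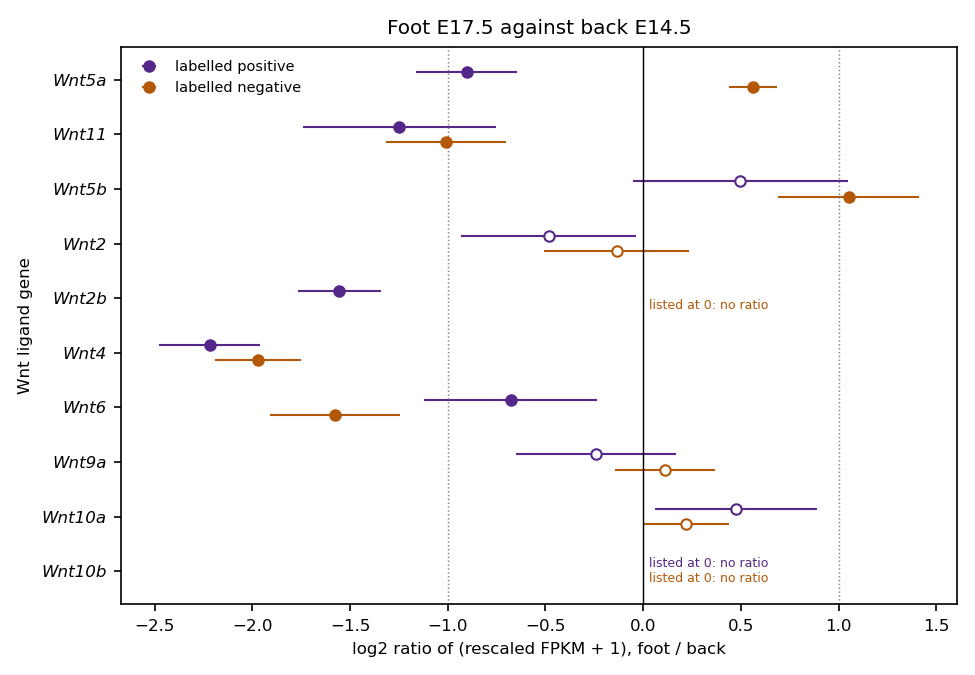
The horizontal axis is the log2 ratio of (rescaled FPKM + 1), foot over back, for each Wnt gene in pos (purple) and neg (orange) libraries; lines are combined half-widths, filled points have separate bounds and dotted lines mark a size of 1. Wnt4 lies farthest left, at -2.22 and -1.97, and Wnt5a lies on both sides of 0, at -0.90 and 0.56.

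All 10 listed genes of Wnt secretion and release were above 0 FPKM in every library, although the lower bound of Porcn in foot pos was 0. Of 10 Wnt secretion genes, the retromer gene Vps29 and the sorting nexin gene Snx3 were highest, between 90.8 and 192 FPKM. Wls, which encodes Wntless, measured 29.4 FPKM in foot pos, 25.6 in foot neg, 38.9 in back pos and 22.8 in back neg. Porcn, which encodes Porcupine, was low, from 0.125 FPKM (0 to 1.66) in foot pos to 1.42 (0.683 to 2.39) in foot neg. Between pos and neg, 0 of 8 were called at the foot and 0 of 9 at the back, where 9.84% of all counted genes were called higher and 9.11% lower at the foot, and 3.61% and 2.75% at the back. The medians were -0.35 and 0.26 against 4.01e-05 and 0.00558 over all genes counted, which hold for the lists below too. Foot against back, the cargo receptor gene Tmed5 was lower at the foot in both pairs (log2 ratios -1.10 ± 0.50 for pos and -1.96 ± 0.47 for neg), the retromer gene Vps26a lower for pos (-1.62 ± 0.39) and Tmed4 higher for neg (1.29 ± 0.18). That is 2 lower of 9 for pos, where 14.2% of all genes were called lower and 13.5% higher, and 1 lower and 1 higher of 9 for neg, where 12.2% and 12.7% were. The list had medians of -0.26 and -0.11 against 0.05 and 0.07 over all genes, which again hold below. Vps26a was also the 1 of 9 called in the foot ratio minus back ratio, at -1.27 ± 0.45, where 12.2% of all genes were called lower and 11.0% higher.

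Ror2, the receptor tyrosine kinase for Wnt5a, was higher at the back in both pairs. It measured 2.26 FPKM (1.25 to 3.91) in foot pos, 4.03 (3.12 to 4.95) in foot neg, 7.53 (6.91 to 8.15) in back pos and 8.18 (7.22 to 9.14) in back neg. Foot against back gave log2 ratios of -1.63 ± 0.58 for pos and -1.49 ± 0.29 for neg. The list of 18 genes of Wnt5a-type reception and planar polarity had 6 counted in each of these pairs. For pos, Ror2 and the polarity receptor gene Ptk7 were lower and Daam2 and Dact1 higher, 2 and 2 of 6 beside 14.2% and 13.5% of all genes, with a median of -0.34. For neg, Ror2 and Ptk7 were lower, 2 of 6 beside 12.2%, with a median of -0.83. Ror1, of the same list but too low to be counted, went the other way from Ror2. It measured 2.62 and 1.81 FPKM in foot pos and neg against 0.958 and 0.605 in back pos and neg. Its foot against back log2 ratio for pos was 0.71 ± 0.29, with separate bounds. Ptk7 measured 7.04 and 5.99 FPKM at the foot and 32.6 and 19.6 at the back. Ryk lay between 13.8 and 18.0 FPKM as deposited in all libraries. After rescaling it was lower at the foot in both pairs (-0.63 ± 0.30 for pos), with separate bounds but short of a call. Between foot pos and neg, Dact1, whose product binds Dishevelled, was higher in pos (1.27 ± 0.31) and the receptor gene Fzd3 lower (-1.04 ± 0.63), 1 each of 6 counted, beside 9.84% higher and 9.11% lower over all genes, with a median of 0.48. Between back pos and neg 0 of 4 were called, beside 3.61% higher and 2.75% lower, with a median of -0.10. Dact1, too low to be counted there (1.97 FPKM in pos and 0.292 in neg), was again higher in pos. Its back log2 ratio was 1.23 ± 0.24, with separate bounds. Fzd3 was the 1 of 7 called in the foot ratio minus back ratio, at -1.40 ± 0.71, beside 12.2% lower over all genes.

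Sulf2, which trims sulfate from heparan sulfate, the matrix sugar that holds Wnt proteins, was highest in foot neg. It measured 9.999 FPKM (7.79 to 14.9) in foot pos, 53.1 (49.5 to 57.3) in foot neg, 27.9 (26.7 to 29.7) in back pos and 20.0 (18.9 to 21.7) in back neg. Its foot pos to neg log2 ratio was -2.03 ± 0.48, the 1 call among 6 counted genes of extracellular Wnt handling, beside 9.11% lower over all genes, and the list median was -0.26. At the back 0 of 5 were called, beside 3.61% higher and 2.75% lower, with a median of 0.50. The foot ratio minus back ratio of Sulf2 was -2.31 ± 0.49, and that of the glypican gene Gpc4 was -1.07 ± 0.29, 2 called of 7 beside 12.2% lower. Gpc3 was the highest gene of the list, at 173 FPKM in foot pos, 183 in foot neg and back pos, and 114 in back neg, the last above its own upper bound of 109.7. Foot against back, Notum, Sulf1 and Sulf2 were lower at the foot for pos, 3 of 6 beside 14.2% over all genes, with a median of -1.01 (-2.12 ± 0.69 for Notum, which encodes a Wnt deacylase), and the glypican gene Gpc6 was higher for neg (1.03 ± 0.19), 1 of 6 beside 12.7%, with a median of 0.11. Of 10 Frizzled and LRP receptor genes, Fzd2 and Fzd1 were highest, between 4.51 and 12.1 FPKM. At most 3 were counted in any pair, and the 1 called was Lrp6, higher at the foot for pos (1.04 ± 0.23), 1 of 3 beside 13.5% over all genes.

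A list of 17 Wnt feedback and target genes was counted in the same way. Between pos and neg, 1 of 9 was called at the foot, Lef1, a nuclear partner of beta-catenin (log2 ratio 1.22 ± 0.38), beside 9.84% higher over all genes, and 0 of 12 at the back, beside 3.61% higher and 2.75% lower. The medians were -0.04 and -0.06 against 4.01e-05 and 0.00558 over all genes. Lef1 measured 8.25 FPKM (6.33 to 10.2) in foot pos, 3.48 (2.71 to 4.25) in foot neg, 8.66 (7.94 to 9.42) in back pos and 8.31 (7.50 to 9.12) in back neg, so foot neg was the low library. Foot against back, 5 of 14 were lower at the foot for pos, beside 14.2% over all genes, among them the transcription factor gene Sp5 (-2.35 ± 0.36). For neg, 6 of 12 were lower, beside 12.2% over all genes, among them Tnfrsf19 (-2.53 ± 0.27), and Axin2 was higher (1.11 ± 0.32), 1 of 12 beside 12.7%. Myc was lower in both pairs (-1.72 ± 0.66 for pos and -1.67 ± 0.32 for neg). The medians were -0.78 and -1.06 against 0.05 and 0.07 over all genes. In the foot ratio minus back ratio, Lef1 (1.34 ± 0.41) and Tnfrsf19 (1.16 ± 0.44) were called, 2 of 14 beside 11.0% higher over all genes. Twist1 and Apcdd1 were the highest genes of the list, Twist1 between 95.5 and 127 FPKM, and Apcdd1 at 26.6 and 37.0 FPKM in foot pos and neg against 69.0 and 61.9 at the back. Except in foot pos, the Twist1 values lay above their own upper bounds.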

How the data were processed

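Messenger RNA of sorted dermal cells was measured in 4 libraries, 1 per group. The authors deposited FPKM values with lower and upper bounds per gene, per the file headers. TopHat, Cufflinks and mm9 are named, without versions, in the submitters' processing notes. The confidence level of the bounds, the strand setting and the read totals are not in the labels or headers. Entries of 1 symbol were summed and joined loci kept as 1 unit, 975 of 33126 units. Symbols that had been altered to dates, 22 in number, were restored, and 459 units with a status other than OK were left out of counts. Scale factors were 1.10 for foot pos, 1.31 for foot neg, 0.888 for back pos and 0.782 for back neg, as median ratios over 4967 units of at least 5 FPKM in every library. Ratios used a pseudocount of 1, which understates changes of low genes. Python 3.11.15 and pandas 2.3.3 were used. The calls were tested on simulated data, with changes well beyond the call limit planted in well-expressed genes and with counting noise alone. That simulation does not show how calls near the limit, low genes or variation between embryos behave.

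The text names the 10 ligands, Axin2, up to 3 called genes of each pathway list per comparison and its 2 highest genes, and the 3 units nearest in pattern to Wnt5a and Wnt11. Other list genes it names were picked with their values known. They include Wls, Cpa3, Cma1, Mcpt4, Fcer1a, Porcn, Wnt16, Ror1, Krt10, Cdh1, Epcam, Trp63, Cdh5, Emcn, Pecam1, Tie1, Acta2 and Rgs5. Kdr, Tagln, Tnnt1, Des, Pdgfra, Lum, Vim, Col1a1 and Col1a2 were picked in the same way. The ligands, the lists and the count by separate bounds were chosen with earlier results of these data known.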

Additional observations from a re-analysis of the deposited data

Results flagged for a closer look

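Wnt5a moved in opposite directions between pos and neg libraries at the 2 sites. At the foot it was lower in pos (16.7 against 43.1 FPKM, log2 ratio -1.06 ± 0.27) and at the back higher in pos (26.1 against 17.1 FPKM, 0.41 ± 0.10), a difference of -1.47 ± 0.29. With 1 library per group the difference was not tested. The direction at the foot rests on tags that the Axin2 transcript did not separate.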

How the results depend on the processing

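No paired analysis was possible because each group holds 1 library, and for the same reason none could be left out. The settings tried were FPKM as deposited, upper quartile scaling, a pseudocount of 0.1, a minimum of 1 FPKM, no minimum, the highest entry of a symbol, the midpoint of the bounds and, chosen after seeing the data, protein-coding genes. The Wnt5a calls at the foot and in the difference between sites held under all of these. At the back, a minimum of 1 FPKM or none called 1 ligand, Wnt2, in place of 0. For foot against back in pos libraries, FPKM as deposited called 0 in place of 1, and a minimum of 1 FPKM or none called 3 (Wnt2b, Wnt4 and Wnt11). In neg libraries, upper quartile scaling, the midpoint and protein-coding genes called 0 in place of 1, a minimum of 1 FPKM or none called 4 (Wnt4, Wnt5b, Wnt6 and Wnt11), and FPKM as deposited called Wnt5a in place of Wnt11. The cause was not tested. Of 252 single log2 ratios, 226 stayed within their half-width and 26 moved beyond it, 16 with the pseudocount of 0.1 and 10 as deposited. The 1 that changed sign was Wnt2, foot against back in neg libraries, at 0.33 as deposited, whose bounds overlap. The sum of the 10 genes stayed within its half-width with the highest entry, the midpoint and all 19 Wnt genes. Many foot levels rest on few implied fragments, and those of foot pos on fewer than their FPKM would show. In foot pos, Wnt2 rests on about 26.7, Wnt6 on 24.7 and Wnt11 on 23.3, with less for every ligand there other than these and Wnt5a. In foot neg, Wnt4 at 0.869 FPKM rests on about 40.3.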

Other observations

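Units nearest in pattern to Wnt5a and Wnt11 over the 4 libraries were looked up among 8272 single-gene units, by Euclidean distance between centred log2 levels. Nearest to Wnt5a were the immediate early gene Egr1 (distance 0.0536), Bckdhb (0.106) and Ckap2 (0.107). Egr1 measured 6.88 FPKM in foot pos, 17.55 in foot neg, 10.8 in back pos and 6.98 in back neg. Nearest to Wnt11 were Ccar1 (0.0574), Get4 (0.0622) and Pprc1 (0.0706). Over so few libraries many units lie close. Within a distance of 0.2 there were 19 for Wnt5a and 36 for Wnt11.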
